A study of Rattus norvegicus with 54 samples.

Results

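Mbd3 and 3 of its partners in the NuRD complex, Hdac1, Hdac2 and Chd4, were followed in RNA sequencing libraries from rat cortical neuron cultures, some of which carried extra Mbd3 on a virus. The rule that chose the 4 genes names Ensembl identifiers and chromosomes, not levels, but it was set with earlier results of these data known. All 4 were found among the 30560 genes of the count table. All 4 also passed the filter on low counts. The question was whether the mRNA of the partners follows the transgene over time and between media.

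The neurons came from rat cortex at embryonic day E18, and the 54 libraries fell into 18 groups of 3. Each group combined 1 of 3 constructs, 1 of 2 media and 1 of 3 time points (2, 6 and 24 h). The constructs were none (untransfected cultures), AAV_SYN_GFP (called GFP here) and AAV_SYN_rMBD3_GFP (called rMBD3 here). AAV is adeno-associated virus, a gene delivery vector. SYN denotes the synapsin promoter, which is active mainly in neurons, so the transgene need not have been expressed in other cells of a culture. The medium labelled Standard contained magnesium, and the medium labelled Epileptic lacked it. Leaving out magnesium unblocks NMDA receptors, and magnesium-free medium is used to evoke seizure-like firing in culture. Both viruses carried GFP, so only Mbd3 distinguishes their cargo. The labels name the 3 replicates of a group as cell cultures 1, 2 and 3, and the same numbers recur in all 18 groups. These are bulk samples, in which fewer cells of a type and less RNA per cell cannot be told apart. The label of the cells as neurons could not be checked against marker genes, because the count table gives identifiers without symbols.

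NuRD, the nucleosome remodelling and deacetylase complex, joins an ATP-driven remodeller to histone deacetylases and is a chromatin regulator, often of repression. Chd4 is its remodelling ATPase, which moves nucleosomes. Hdac1 and Hdac2 are closely related class I deacetylases, shared with other complexes, that remove acetyl groups from histone tails. Mbd3 is a scaffold subunit related to the methyl-CpG binding protein Mbd2. Unlike Mbd2, mammalian Mbd3 binds methylated CpG weakly, and either Mbd2 or Mbd3, but not both, is found in a given complex. In the developing cortex NuRD regulates the order and timing of neuronal gene programmes.

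On mRatBN7.2, the build of the count table, Mbd3 (ENSRNOG00000028956) lies on chromosome 7 from 9313098 to 9320165 on the plus strand, with 1923 bases of exon. Hdac1 (ENSRNOG00000009568) lies on chromosome 5 from 141853989 to 141881111 on the minus strand, with 2369 exonic bases. Hdac2 (ENSRNOG00000000604) lies on chromosome 20 from 40548250 to 40571609 on the plus strand, with 2216 exonic bases. Chd4 (ENSRNOG00000018309), the longest in exons with 6538 bases, lies on chromosome 4 from 157899391 to 157931541 on the plus strand.

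The promoters of the 4 genes are shown because the virus supplied Mbd3 from the SYN promoter, while the partners were transcribed from their own. Each sequence is the 250 bases before the start site in RefSeq on GRCr8, read 5′ to 3′ on the strand of the gene. All 4 symbols matched the RefSeq table, and each gene lay on the same chromosome there as in the count table. CpG dinucleotides, the sites that DNA methylation marks, are in capitals. The windows are chr7:9963390-9963639 (plus) for Mbd3, chr5:147165388-147165637 (minus) for Hdac1, chr20:42102877-42103126 (plus) for Hdac2 and chr4:159584568-159584817 (plus) for Chd4.
Mbd3: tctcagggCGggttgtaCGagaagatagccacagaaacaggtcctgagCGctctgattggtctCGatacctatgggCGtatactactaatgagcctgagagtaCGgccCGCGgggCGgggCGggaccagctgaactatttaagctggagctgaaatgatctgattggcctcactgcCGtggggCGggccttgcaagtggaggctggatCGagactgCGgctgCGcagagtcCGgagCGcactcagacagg
Hdac1: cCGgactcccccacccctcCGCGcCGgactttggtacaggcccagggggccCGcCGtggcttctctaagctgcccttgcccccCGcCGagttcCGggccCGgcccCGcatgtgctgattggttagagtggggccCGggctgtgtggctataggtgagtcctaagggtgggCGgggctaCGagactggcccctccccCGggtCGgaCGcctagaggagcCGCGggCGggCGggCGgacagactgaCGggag
Hdac2: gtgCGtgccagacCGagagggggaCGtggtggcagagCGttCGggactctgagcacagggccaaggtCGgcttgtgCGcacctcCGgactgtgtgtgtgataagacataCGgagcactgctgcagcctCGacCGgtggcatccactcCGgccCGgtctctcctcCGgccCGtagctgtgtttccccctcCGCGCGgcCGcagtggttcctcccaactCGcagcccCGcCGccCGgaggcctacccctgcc
Chd4: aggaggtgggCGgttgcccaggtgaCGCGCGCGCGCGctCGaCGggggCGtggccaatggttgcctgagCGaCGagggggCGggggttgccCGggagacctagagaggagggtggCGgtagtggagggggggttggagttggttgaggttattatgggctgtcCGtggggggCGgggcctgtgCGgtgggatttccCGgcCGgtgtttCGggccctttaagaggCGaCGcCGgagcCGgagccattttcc

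All 4 promoters were rich in CpG. Mbd3 had 17 CpG, Hdac1 23, Hdac2 23 and Chd4 25, against a median of 5 over all 33469 promoter windows of the same length. As many CpG or more were found in 21.9%, 12.3%, 12.3% and 9.74% of all windows. GC content was 59.2% for Mbd3, 72.4% for Hdac1, 68.8% for Hdac2 and 69.2% for Chd4, against a median of 51.2%. Searched on both strands, the GC box GGGCGG, which contains a CpG, occurred 4 times in Mbd3, 4 in Hdac1, 1 in Hdac2 and 3 in Chd4, and 30.5% of all windows held at least 1. CCAAT occurred 2 times in Mbd3, 1 in Hdac1, 0 in Hdac2 and 1 in Chd4, with 34% of all windows holding it. The cAMP response element TGACGTCA, which also contains a CpG, occurred in 0 of the 4 windows and in 1.59% of all windows. These matches describe letters in the windows only. The RefSeq gene records of Mbd3, Hdac2 and Chd4 begin further upstream, so part of those windows may be transcribed. DNA methylation was not measured in these libraries.

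Depth was high for all 4 genes. Total counts per library ran from 14448927 to 39691105, with a median of 26121007. Levels are given as CPM, the count of a gene relative to library size, scaled by the TMM method. Tests were edgeR's quasi-likelihood test fitted to all 54 libraries, with Benjamini-Hochberg adjusted p-values over the 17172 genes tested and a threshold of 0.05. Standard errors (SE) and 95% intervals come from the same fit, and SD is the spread between libraries.

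Without the Mbd3 virus, the order of the 4 levels was Mbd3, Chd4, Hdac2, Hdac1 once each was divided by exonic length. In untransfected cultures Mbd3 stood at 100.1 ± 21.5 CPM per kb (SD, n = 18), Chd4 at 73.3 ± 22.98, Hdac2 at 43.3 ± 5.70 and Hdac1 at 26.99 ± 10.2. The libraries of Mbd3 and Chd4 overlapped, from 62.9 to 141.1 and from 39.8 to 116.9 CPM per kb. The libraries of Hdac2 (34.4 to 54.8) overlapped those of Chd4 and those of Hdac1 (15.5 to 49.7). Within a library the ratio of Hdac2 to Chd4 reached 1.06, so this order of means did not hold in every library. GFP cultures had the same order, with 90.1 ± 18.7, 68.4 ± 19.7, 46.95 ± 5.22 and 27.2 ± 12.45 CPM per kb. Part of these spreads is the time course described below, since 2, 6 and 24 h libraries are pooled in them.

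Mbd3 in the rMBD3 libraries was far above both controls in every library. In medium with magnesium, cultures 1, 2 and 3 had 14010, 13360 and 18260 CPM at 2 h, 7730, 8510 and 10220 CPM at 6 h, and 7372, 2840 and 3181 CPM at 24 h. In magnesium-free medium they had 18030, 7398 and 16150 CPM at 2 h, 10530, 8959 and 9992 CPM at 6 h, and 7990, 2662 and 2291 CPM at 24 h. The 18 GFP libraries ran from 113.2 to 268.7 CPM with a median of 174.1, and the 18 untransfected libraries from 120.9 to 271.3 CPM with a median of 190.1. The lowest rMBD3 library was thus well clear of every control library, while the ranges of GFP and untransfected libraries overlapped. By condition they overlapped in 5 of 6, and at 2 h without magnesium the GFP libraries (113.2 to 130.5 CPM) lay below the untransfected ones (135.9 to 184.8 CPM). Counts were taken per gene, so in rMBD3 libraries they hold virus-derived and endogenous Mbd3 mRNA together, and the endogenous part was not separated.

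The fall of Mbd3 from 2 to 24 h in rMBD3 cultures was smallest in culture 1. At 24 h culture 1 held 7372 and 7990 CPM of Mbd3, while cultures 2 and 3 held 2291 to 3181 CPM. At 2 h the lowest of the 6 libraries was culture 2 without magnesium (7398 CPM), which lay below culture 1 of the same medium at 24 h. Within each culture and medium, Mbd3 was lower at 24 h than at 2 h in 6 of 6 series, by −2.82 to −0.93 on the log2 scale. At 6 h it was lower than at 2 h in 5 of 6 series, the exception being culture 2 without magnesium.

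**Figure D1:**
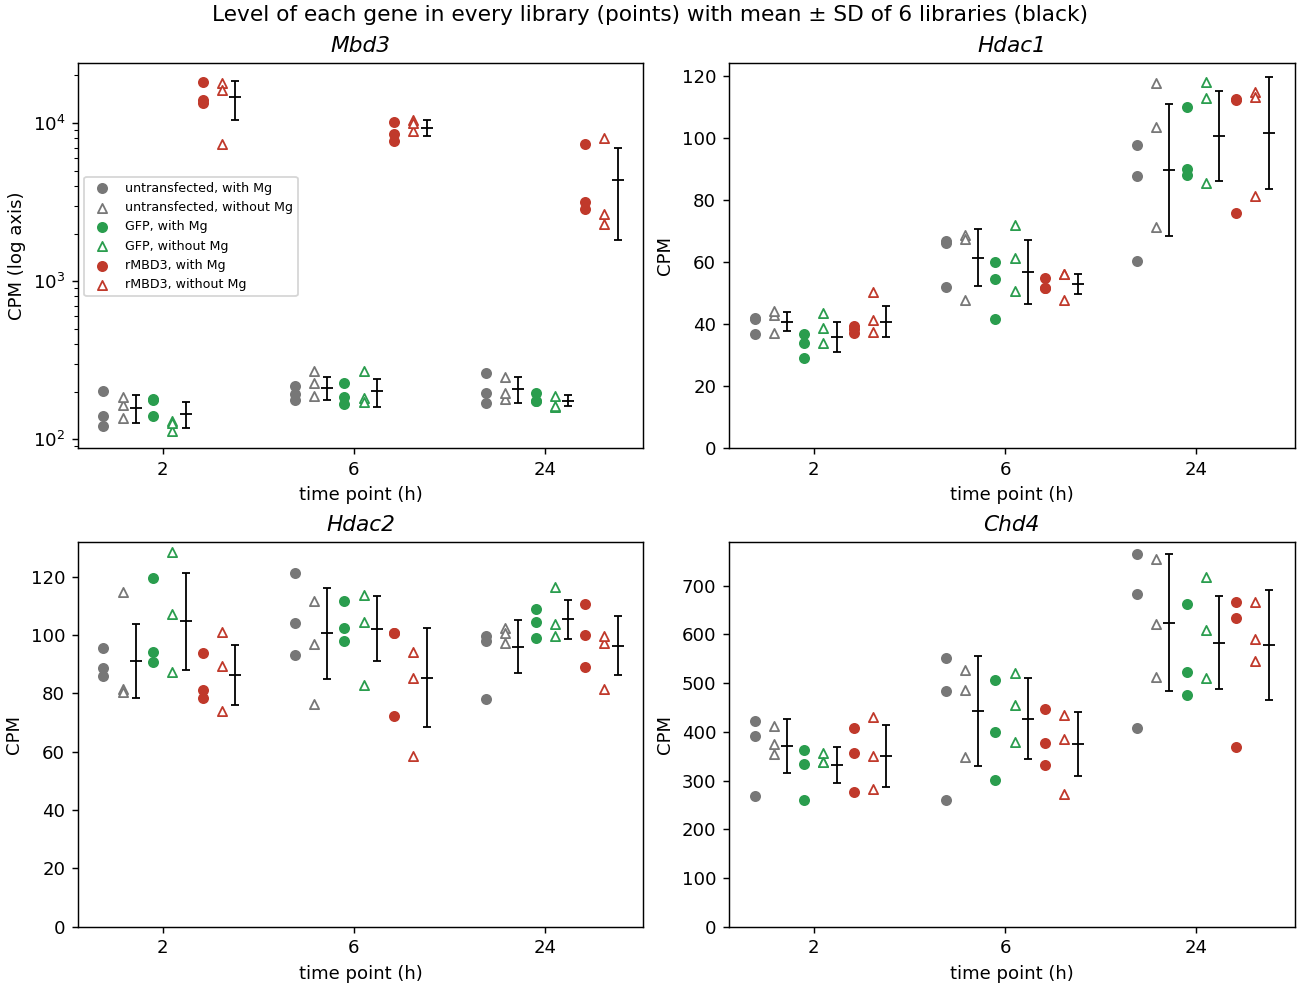
Levels of Mbd3, Hdac1, Hdac2 and Chd4 in CPM (vertical axis, logarithmic for Mbd3 and linear from 0 for the others) at 2, 6 and 24 h (horizontal axis). Each point is 1 library, circles with magnesium and triangles without it, coloured by construct, and black marks give the mean ± SD of 6 libraries. Mbd3 in rMBD3 cultures declines from 2 to 24 h but stays above every control library, the means of Hdac1 and Chd4 climb in all 3 constructs, and the means of Hdac2 lie between 85.3 and 105.4 CPM.

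The first comparison set rMBD3 against GFP, so that both sides carried a virus and the cargo differed in Mbd3. Whether the virus preparations also differed in dose or in the share of cells reached was not tested. Mbd3 was higher by 5.62 ± 0.16 on the log2 scale (95% interval 5.29 to 5.94; adjusted p = 8.83e-28, edgeR), averaged over the 6 conditions with equal weight. It was higher in 18 of 18 pairs of same-numbered libraries, by 3.61 to 7.11. Of the 3 partners, Hdac2 alone passed the test, and it was lower. The share of all genes tested that passed in this comparison was 11% (1886 genes, with 4.58% lower in rMBD3), and it was 2992 genes with the replicate block. With 1 of 3 partners called against that background, the count itself does not set the partners apart.

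Hdac2 was slightly lower in rMBD3 than in GFP cultures. In medium with magnesium, cultures 1, 2 and 3 of GFP had 119.7, 90.8 and 94.1 CPM at 2 h, 98.1, 111.5 and 102.4 CPM at 6 h, and 104.3, 109 and 99 CPM at 24 h. The rMBD3 cultures had 93.9, 78.55 and 81.2 CPM at 2 h, 72.4, 100.6 and 100.8 CPM at 6 h, and 88.9, 99.8 and 110.6 CPM at 24 h. At each time the 2 groups overlapped in this medium. In magnesium-free medium GFP cultures had 128.5, 107.3 and 87.4 CPM at 2 h, 82.7, 113.8 and 104.4 CPM at 6 h, and 99.6, 103.6 and 116.6 CPM at 24 h. The rMBD3 cultures had 74, 101.1 and 89.4 CPM at 2 h, 58.7, 94.3 and 85.15 CPM at 6 h, and 81.4, 97.3 and 99.8 CPM at 24 h. Culture 1 had the lowest rMBD3 value in 5 of the 6 conditions, and the groups overlapped in this medium too.

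Averaged over conditions, Hdac2 differed by −0.22 ± 0.07 on the log2 scale (95% interval −0.37 to −0.08; adjusted p = 0.0346, edgeR), or 0.857-fold. It was lower in 16 of 18 same-numbered pairs, with a median of −0.22 and a range from −0.80 to 0.16. These pairs are 3 cultures in 2 media at 3 times, and the fit treats all 54 libraries as independent. The median of all genes tested was −0.03. The call was lost when any 1 culture was left out, with −0.12 (adjusted p = 0.104) without culture 1, −0.25 (adjusted p = 0.172) without culture 2 and −0.28 (adjusted p = 0.171) without culture 3. It was also lost without the low-count filter (−0.22, adjusted p = 0.0605). It was kept with the replicate block (−0.23, adjusted p = 0.0168), with a block per time point (−0.23, adjusted p = 0.0012) and with DESeq2 (−0.22, adjusted p = 0.0154).

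Against untransfected cultures the difference in Hdac2 was −0.10 ± 0.07 (95% interval −0.25 to 0.04; adjusted p = 0.409, edgeR), lower in 13 of 18 pairs. GFP cultures in turn stood at 0.12 ± 0.07 against untransfected ones (95% interval −0.02 to 0.26; adjusted p = 0.657), higher in 16 of 18 pairs. Hdac2 in untransfected cultures therefore lay between the other constructs, at 95.9 ± 12.6 CPM against 104.0 ± 11.6 in GFP and 89.3 ± 13.1 in rMBD3 cultures (SD, n = 18 each). The 3 comparisons share libraries, so they are not independent. The shares of all genes called were 8.65% for rMBD3 against untransfected, where 0 of 3 partners passed, and 0.297% for GFP against untransfected, where 0 of 4 genes passed.

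Hdac1 and Chd4 did not pass the test between rMBD3 and GFP. Hdac1 differed by 0.03 ± 0.08 (95% interval −0.12 to 0.19; adjusted p = 0.843, edgeR), higher in 10 and lower in 8 of 18 pairs. Chd4 differed by −0.04 ± 0.10 (95% interval −0.25 to 0.17; adjusted p = 0.872), higher in 9 and lower in 9 pairs. These intervals leave room for changes of up to about their bounds, set against 5.62 for Mbd3. They come from a fit that does not use the culture numbers. With the replicate block, which does, Hdac1 stood at 0.04 ± 0.05 (adjusted p = 0.67, edgeR). Chd4 stood at −0.05 ± 0.06 (adjusted p = 0.626) in that fit, so the spread was smaller for both and neither passed. Against untransfected cultures Hdac1 stood at −0.01 (adjusted p = 0.973), higher in 9 and lower in 9 of 18 pairs. Chd4 stood at −0.14 (95% interval −0.35 to 0.06; adjusted p = 0.44, edgeR), lower in 13 of 18 pairs. With the replicate block its adjusted p was 0.0952. GFP cultures were also lower in Chd4 than untransfected ones, in 14 of 18 pairs (−0.11, adjusted p = 0.878).

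No partner passed in any of the 6 conditions taken singly, while Mbd3 passed in all 6. Across 2, 6 and 24 h the log2 difference of Mbd3 was 6.53, 5.51 and 4.62 with magnesium, and 6.81, 5.57 and 4.67 without. For Hdac2 the estimates were −0.26, −0.19 and −0.06 with magnesium and −0.29, −0.34 and −0.20 without. All 6 were below 0, but each had an interval that included 0 in this fit, which does not use the culture numbers. The adjusted p of the partners was 0.828 to 1 (edgeR). Hdac1 ran from −0.20 (6 h without magnesium) to 0.21 (2 h with magnesium), and Chd4 from −0.31 to 0.12 in the same conditions. With a block per time point, no partner passed in any condition either. At 6 h without magnesium that block gave −0.35 ± 0.12 for Hdac2 (adjusted p = 0.582, edgeR) and −0.33 ± 0.14 for Chd4 (adjusted p = 0.745). In the fit without a block, the share of all genes called was 0.0116%, 0.0116% and 0.134% at 2, 6 and 24 h with magnesium. Without magnesium it was 0.00582%, 0.00582% and 0.0233%. These counts depended on the fit: at 24 h with magnesium 23 genes passed, against 140 with the replicate block, 1416 with a block per time point, 1720 without culture 1 and 0 with the compared groups alone. In fits of the compared groups alone, Mbd3 did not pass at 24 h, where culture 1 stood apart (4.63, adjusted p = 0.276, with magnesium and 4.65, adjusted p = 0.326, without).

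**Figure D2:**
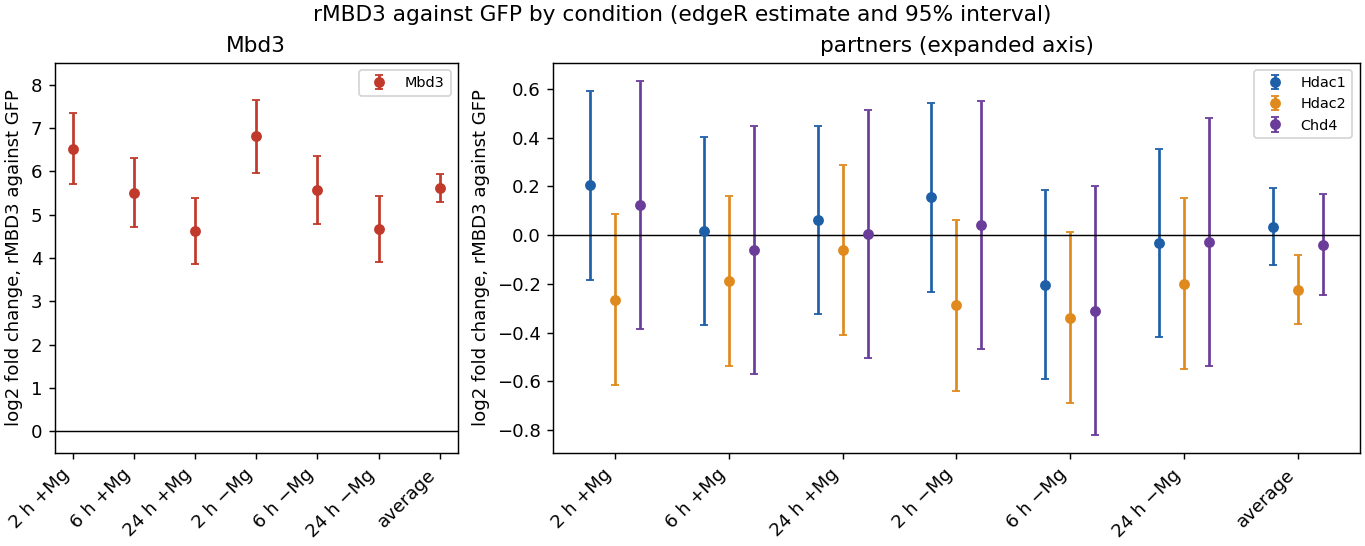
Log2 fold change of rMBD3 against GFP (vertical axes) in each of 6 conditions and on average (horizontal axis), with points for the edgeR estimate and bars for its 95% interval. Mbd3, on the left, declines from 6.53 and 6.81 at 2 h to 4.62 and 4.67 at 24 h. The partners, on an expanded axis at the right, lie between −0.34 and 0.21. Their intervals, from the fit that does not use the culture numbers, include 0 in every single condition.

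From 2 to 24 h 2 of the partners passed upward, Hdac1 and Chd4, as did 21.1% to 25.9% of all genes tested, depending on the construct. Hdac1 rose from 2 to 24 h in every construct. Its level across 2, 6 and 24 h went from 40.8 ± 3.15 CPM to 61.4 ± 9.14 and 89.7 ± 21.2 in untransfected cultures (SD, n = 6). In GFP cultures it went from 35.9 ± 4.85 to 56.7 ± 10.3 and 100.6 ± 14.5 CPM, and in rMBD3 cultures from 40.7 ± 5.02 to 53 ± 3.22 and 101.5 ± 18. The 2 h libraries of all constructs (29.2 to 50.4 CPM) lay below all 24 h libraries (60.3 to 118).

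The rise of Hdac1 from 2 to 24 h was 1.13 ± 0.14 on the log2 scale in untransfected cultures (adjusted p = 1.19e-08, edgeR), 1.49 ± 0.14 with GFP (adjusted p = 1.23e-11) and 1.32 ± 0.14 with rMBD3 (adjusted p = 1.95e-10). It was present in 6 of 6 series of each construct. Many other genes changed over the same hours: 45.1%, 52.8% and 53.5% of all genes passed in these comparisons, 21.1%, 24.6% and 25.9% upward, with medians over all genes of 0.03, −0.01 and 0.04. The change of Hdac1 lay above those of 87.8%, 90.4% and 89.6% of the genes tested. By 6 h Hdac1 had risen by 0.59, 0.66 and 0.38 (adjusted p = 0.00141, 0.000396 and 0.035), where 23.5%, 23.4% and 23.5% of genes passed, 9.14%, 9.76% and 9.48% upward. The 6 h calls were lost without culture 3 in all 3 constructs (adjusted p = 0.106, 0.0749 and 0.355), and without culture 2 in untransfected (0.0757) and rMBD3 cultures (0.112), and the rMBD3 call also without the low-count filter (0.0501).

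Chd4 rose as well, with smaller estimates than Hdac1 in each construct. Across the same times its level in untransfected cultures went from 371 ± 55.9 to 443 ± 114 and 624 ± 141 CPM (SD, n = 6). GFP cultures had 331 ± 36.9, 427 ± 83.6 and 583 ± 95.5 CPM, and rMBD3 cultures 351 ± 62.8, 375 ± 65 and 578 ± 113. The pooled 2 h libraries (259.7 to 429.7 CPM) overlapped those at 24 h (368 to 764.5), the 24 h libraries within the 2 h range both being from culture 1.

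From 2 to 24 h Chd4 changed by 0.75 ± 0.18 in untransfected cultures (adjusted p = 0.000739, edgeR), 0.82 ± 0.18 with GFP (adjusted p = 0.000207) and 0.72 ± 0.18 with rMBD3 (adjusted p = 0.00084), upward in 6 of 6 series of each. The change of Chd4 lay above those of 79.6%, 78.5% and 76.6% of the genes tested, where 21.1%, 24.6% and 25.9% of genes passed upward. The call in rMBD3 cultures was lost without culture 3 (0.63, adjusted p = 0.0832). From 2 to 6 h the estimates of 0.25, 0.37 and 0.10 did not pass (adjusted p = 0.323, 0.139 and 0.749). With the replicate block the 6 h value in GFP cultures did pass (0.35, adjusted p = 0.00605). Without culture 1 it passed in untransfected (0.42, adjusted p = 0.00398) and GFP cultures (0.49, adjusted p = 0.00122).

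Hdac2 showed no call over time with all cultures. The 24 h against 2 h estimate was 0.07 ± 0.12 without virus (95% interval −0.17 to 0.32; adjusted p = 0.651, edgeR), 0.01 ± 0.12 with GFP (adjusted p = 0.952) and 0.16 ± 0.12 with rMBD3 (adjusted p = 0.289). It was upward in 4, 3 and 4 of 6 series. Its mean level stayed between 85.3 and 105.4 CPM in all 9 combinations of construct and time. Culture 1 weighed on this: without it, Hdac2 rose in all 3 constructs, by 0.34 (adjusted p = 0.00131), 0.25 (adjusted p = 0.0128) and 0.26 (adjusted p = 0.00971). Its 6 h estimates, 0.14 in untransfected and −0.03 in GFP cultures with all cultures, also passed without culture 1 (0.43, adjusted p = 0.000238, and 0.24, adjusted p = 0.0273).

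Mbd3 in the control cultures, where all of it is endogenous, did not pass the test between 2 and 24 h. It went from 157.8 ± 31.1 to 211.8 ± 34.5 and 208 ± 38.4 CPM in untransfected cultures (2, 6 and 24 h), and from 144.2 ± 27.2 to 200.2 ± 39.7 and 175.5 ± 13.7 CPM with GFP (SD, n = 6). The 24 h change was 0.40 ± 0.23 (adjusted p = 0.154, edgeR) and 0.30 ± 0.23 (adjusted p = 0.279). Fitted with the compared groups alone it passed in both, at 0.49 (adjusted p = 0.0426) and 0.31 (adjusted p = 0.0147). In rMBD3 cultures total Mbd3 changed by −0.64 at 6 h (adjusted p = 0.0364, lost without any 1 culture, adjusted p = 0.0723 to 0.296, and with relative log expression factors, 0.0653) and by −1.73 ± 0.23 at 24 h (adjusted p = 6.85e-08). Total Mbd3 there thus fell over the hours in which Hdac1 and Chd4 rose.

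Whether the difference between rMBD3 and GFP itself changed with time was tested as an interaction. For Mbd3 the difference was smaller at 24 h than at 2 h by −2.02 ± 0.33 (adjusted p = 0.00375, edgeR), 1 of 3 genes that passed, or 0.0175% of those tested. The call was lost without culture 2 (−1.99, adjusted p = 0.406), without culture 3 (−1.57, adjusted p = 1) and with the compared groups alone (−2.02, adjusted p = 0.34). For the partners the same contrast gave −0.17 for Hdac1 (adjusted p = 0.842), 0.15 for Hdac2 (0.849) and −0.09 for Chd4 (0.96). At 6 h against 2 h edgeR called 0 genes, with 311 at an unadjusted p under 0.05 and an estimate of −1.13 ± 0.32 for Mbd3 (adjusted p = 1).

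Pair by pair, partner mRNA was set against the amount of added Mbd3. In the 18 same-numbered pairs of rMBD3 and GFP libraries, Pearson's r with the Mbd3 difference was 0.202 for Hdac1 (permutation p = 0.421, adjusted 0.632), −0.375 for Hdac2 (p = 0.126, adjusted 0.378) and −0.022 for Chd4 (p = 0.93, adjusted 0.93). Spearman's rho was 0.23 (permutation p = 0.357), −0.201 (p = 0.422) and 0.098 (p = 0.699). Without the 2 pairs farthest from the median Mbd3 difference, r was 0.181, −0.409 and 0.004 (n = 16). None of the 3 relations passed a two-sided test. The permutations treated the 18 pairs as independent, but they are 3 cultures in 2 media at 3 times. Pairs within the smaller sets below share cultures or media too. The Mbd3 difference also fell with time, so r over all pairs mixes time with the amount of added Mbd3.

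Within time points, with 6 pairs each, r for Hdac2 was −0.329, 0.021 and −0.512 (2, 6 and 24 h), so the negative sign was not kept at 6 h. For Hdac1 it was −0.198, 0.306 and −0.528, and for Chd4 −0.76, −0.227 and −0.304. The Chd4 value at 2 h had an exact permutation p of 0.0333, which became 0.1 after adjustment over the 3 partners. Within cultures 1, 2 and 3, r for Hdac2 was −0.802 (exact permutation p = 0.0639, adjusted 0.192), −0.263 and −0.126. For Hdac1 it was 0.071, 0.155 and 0.22, and for Chd4 −0.14, 0.554 and −0.183.

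**Figure D3:**
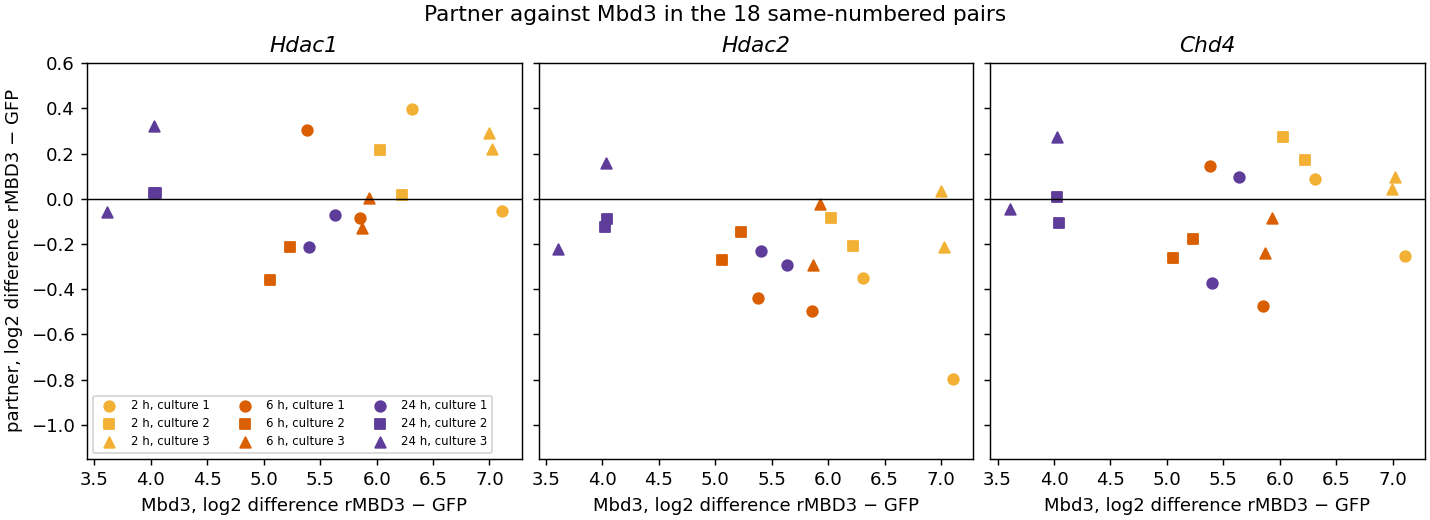
Log2 difference between rMBD3 and GFP libraries of the same culture number, medium and time, for each partner (vertical axis) against that of Mbd3 (horizontal axis). Each of the 18 points is 1 pair, coloured by time and shaped by culture, and r is 0.202 for Hdac1, −0.375 for Hdac2 and −0.022 for Chd4. Hdac2 lies below 0 in 16 pairs, at small and large Mbd3 differences.

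Between media 0 of the 4 genes passed the test. Averaged over the 9 combinations of construct and time, the magnesium-free against magnesium difference was −0.02 ± 0.11 for Mbd3 (adjusted p = 1, edgeR), −0.02 ± 0.06 for Hdac2 (0.962) and 0.07 ± 0.08 for Chd4 (0.812). Hdac1 was nearest to the threshold, at 0.12 ± 0.06 (95% interval −0.01 to 0.25; adjusted p = 0.561), and was higher without magnesium in 22 of 27 pairs of the same construct, time and culture. With the replicate block this Hdac1 difference was 0.119 ± 0.041 (adjusted p = 0.215, edgeR). A block per time point gave 0.119 ± 0.037 (adjusted p = 0.0651), still short of the threshold. By time, the Hdac1 estimates without a block for 2, 6 and 24 h were 0.14, 0.08 and 0.14 (adjusted p = 1, 1 and 0.64). edgeR called 0 of all genes (0%) in the averaged comparison, with 1565 at an unadjusted p under 0.05, and DESeq2 called 10. With a replicate block per time point edgeR called 429 genes there (84 higher, 345 lower). At 24 h alone it called 0 genes, with 1988 at an unadjusted p under 0.05, 36 with the replicate block, 1186 with a block per time point and 176 without culture 1, and DESeq2 called 103. Mbd3, Hdac1, Hdac2 and Chd4 were not among them under any of these settings.

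The difference between rMBD3 and GFP was not shown to depend on the medium for any of the 4 genes. The interaction, averaged over the 3 times, was 0.13 for Mbd3, −0.12 for Hdac1, −0.10 for Hdac2 and −0.12 for Chd4 (adjusted p = 1 each, edgeR). In that contrast edgeR called 0 genes (0%), with 472 at an unadjusted p under 0.05, and DESeq2 called 0.

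The ratios between the 4 mRNAs, each per kb of exon, moved with both the transgene and time. In untransfected cultures there was 1.47 ± 0.53 of Mbd3 per Chd4 (SD, n = 18), and in GFP cultures 1.39 ± 0.395. Across 2, 6 and 24 h the means were 1.46, 1.78 and 1.18 in untransfected and 1.51, 1.62 and 1.05 in GFP cultures. They were thus also lowest at 24 h in both controls. In rMBD3 cultures the ratio fell from 148 ± 55.5 over 87.5 ± 23.7 to 29.4 ± 23.7 across the 3 times (SD, n = 6), a description without a test. Even the lowest rMBD3 library at 24 h had 13.2, above the 2.82 of the highest untransfected library.

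Hdac1 gained on Hdac2 in every construct. Across 2, 6 and 24 h the ratio of Hdac1 to Hdac2 was 0.428, 0.573 and 0.867 without virus. With the GFP virus it was 0.327, 0.519 and 0.891, and with the Mbd3 virus 0.442, 0.598 and 0.983. Ratios at 2 h reached at most 0.513 in any library, and at 24 h they were at least 0.685. On the log2 scale the 24 h against 2 h difference was 1.02, 1.46 and 1.15 in the 3 constructs (means of 6 libraries, which are 3 cultures in 2 media). The ratio was chosen after its values had been seen, so it is given as a description without a test.

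**Figure D4:**
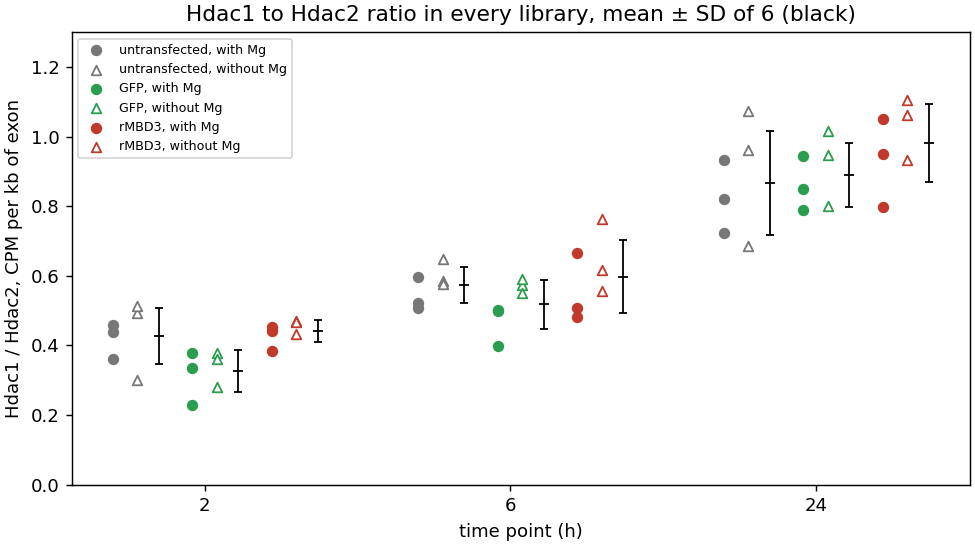
Ratio of Hdac1 to Hdac2 in CPM per kb of exon (vertical axis, from 0) at 2, 6 and 24 h (horizontal axis), 1 point per library with circles for magnesium and triangles for magnesium-free medium, and black marks for the mean ± SD of 6. All 2 h libraries lie at or below 0.513 and all 24 h libraries at or above 0.685 in the 3 constructs.

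Levels of the partners differed by culture number across constructs, media and times. The library numbers in the labels run consecutively within a culture number and time point. Culture and any order of handling thus cannot be told apart. Culture 1 had the lowest Chd4 in 18 of 18 groups and the lowest Hdac1 in 16 of 18. Hdac2 was lowest in culture 1 in 12 of 18 groups, and Mbd3 in 4 of 18. Culture 2 had the highest Chd4 in 15 groups and the highest Hdac1 in 12. At 24 h in rMBD3 cultures, culture 1 combined the highest Mbd3 (mean 7680 CPM over the 2 media, against 2750 and 2740) with the lowest Hdac1 (78.5 against 113 and 113) and Chd4 (456 against 666 and 612). In untransfected cultures at 24 h, which lack the virus, culture 1 was also lowest in Hdac1 (65.7 against 108 and 95.6) and Chd4 (460 against 760 and 653). What set culture 1 apart was not tested.

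Over the 18 group means, Hdac1 and Chd4 followed each other most closely of the 4, with r = 0.96 on log2 CPM. Mbd3 had r of −0.05 with Hdac1, −0.69 with Hdac2 and −0.19 with Chd4, and Hdac2 had 0.31 with Hdac1 and 0.33 with Chd4. These are descriptions without a test, since all genes share the same libraries and 12 groups lack the transgene. Among 12201 genes with a mean log2 CPM of at least 1, the pattern nearest to Mbd3 was that of ENSRNOG00000019587 (chromosome 9, 76741016 to 76756190, r = 0.918). For Hdac1 it was ENSRNOG00000009878 (chromosome 8, 114047933 to 114067631, r = 0.99), and for Chd4 ENSRNOG00000020804 (chromosome 8, 110111122 to 110214720, r = 0.981). Hdac2 had the loosest match, ENSRNOG00000001032 (chromosome 12, 10601056 to 10624608, r = 0.8). The second nearest genes reached r of 0.913, 0.989, 0.98 and 0.783 for Mbd3, Hdac1, Chd4 and Hdac2.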

How the data were processed

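Polyadenylated RNA of 54 rat cortical culture libraries was sequenced with a stranded kit, per the labels' protocols. The deposited table holds raw counts per gene made with featureCounts 2.0.0, per the file headers: read pairs, strand setting 2, mapping quality of at least 3, primary alignments and Ensembl annotation release 105 of mRatBN7.2. The labels' protocols name rn6 for the alignment with STAR, and the submitters' processing notes name mRatBN7.2, Trim Galore, Salmon, SAMtools and DESeq2. The deposited exonic length per gene, an "other" value in bases, served only for levels per kb. A second deposited table, of log2 values, was not used.

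The 4 genes were taken by identifier and chromosome. These members, the lists and the tests were chosen with earlier results of these data known. Other NuRD subunits, other deacetylases and cell type markers were listed by symbol, but 0 identifiers of the count table matched the 47357 genes of the symbol table, so these lists were not analysed here. For each member the 2 genes with the highest Pearson r of group means were to be named.

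edgeR 4.0.16 (R 4.3.3) used TMM factors, filterByExpr (minimum count 10, minimum total 15) and 1 coefficient for each of 18 groups. Log2 CPM used a prior count of 2. Alternatives were the replicate block, a block per time point, the compared groups alone with and without block, relative log expression factors, library sizes without Mbd3, leaving out each culture, no low-count filter, and DESeq2 1.42.0 (minimum total 10). The main fit was tested on simulated data in which libraries were independent. Those data held no effect shared by libraries of the same culture number, so the check does not cover such an effect. Correlations over pairs and their permutation tests used numpy 2.4.6, with ranks from scipy 1.17.1.

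The pairing rests on the labels, where the number names the cell culture. Same-numbered rMBD3 and GFP libraries deviated together from their group means (correlation 0.106 to 0.452, mean 0.288, over 18 pairs), and libraries at 6 or 24 h did so less with those at 2 h (mean 0.253, 0.15 and 0.12 for cultures 1, 2 and 3).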

Additional observations from a re-analysis of the deposited data

Results flagged for a closer look

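The difference in Mbd3 between rMBD3 and GFP cultures changed between time points by the interaction test: it was smaller at 24 h than at 2 h by −2.02 ± 0.33 on the log2 scale (adjusted p = 0.00375, edgeR), averaged over both media. The call was lost with the compared groups alone (adjusted p = 0.34), without culture 2 (adjusted p = 0.406) and without culture 3 (adjusted p = 1). In single conditions the difference went from 6.53 to 4.62 with magnesium and from 6.81 to 4.67 without it. Total Mbd3 fell in 6 of 6 rMBD3 series of the same culture and medium, while it rose in 6 of 6 untransfected and 4 of 6 GFP series.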

How the results depend on the processing

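Of 968 log2 fold changes computed under alternatives for 88 results, 884 kept their direction and side of the threshold, 22 lost a call, 20 gained one and 42 changed sign, 0 of them called in the reported fit. The cause of these changes was not tested. The Mbd3 difference between rMBD3 and GFP, averaged over conditions, and the 24 h rises of Hdac1 passed under every alternative run.

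For Hdac2, rMBD3 against GFP on average was −0.22 without the low-count filter (adjusted p = 0.0605) and −0.28 to −0.12 leaving out a culture (adjusted p = 0.104 to 0.172), and −0.23 with the replicate block (adjusted p = 0.0168). The count of genes called there was 1886, 2992 with the replicate block, 4083 with a block per time point, 3658 with the compared groups and the block, and 309 to 2468 leaving out a culture. Lowest and highest counts elsewhere were 322 and 3380 for rMBD3 against untransfected (1485 reported), 0 and 501 for GFP against untransfected (51 reported; 0 was edgeR without culture 3, and DESeq2 called 280), 814 and 7660 for 6 h against 2 h (4018 to 4032 reported), and 4301 and 10527 for 24 h against 2 h (7747 to 9189 reported). Between media, edgeR called 0 to 429 genes on average, 0 at 2 and 6 h and 0 to 1186 at 24 h (0 reported in each). For rMBD3 against GFP in single conditions at 2, 6 and 24 h, the counts were 1 to 706, 1 to 164 and 0 to 1720 with magnesium (2, 2 and 23 reported), and 1 to 228, 1 to 530 and 0 to 17 without (1, 1 and 4 reported). For the rMBD3 effect at 24 h against 2 h the counts were 0 to 54 (3 reported), and between media 0 to 1 (0 reported). These counts come from the same fits as the values of Mbd3, Hdac1, Hdac2 and Chd4.

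For Mbd3, 24 h against 2 h with the compared groups alone was 0.49 in untransfected and 0.31 in GFP cultures, and with the block added 0.51 and 0.31. Its interaction of 24 h against 2 h was −2.02 with the compared groups alone (adjusted p = 0.34) and −2.74 to −1.57 leaving out a culture. Leaving out a culture gave −0.0131 to 0.3377, −0.1083 to 0.2472 and 0.0277 to 0.2567 for Hdac2 at 24 h against 2 h (untransfected, GFP, rMBD3), and 0.63 to 0.78 for Chd4 in rMBD3 cultures.

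Sign changes of uncalled values were small where no culture was left out. For rMBD3 against GFP with magnesium at 24 h, Chd4 was −0.0236 with the replicate block, −0.0235 with a block per time point, −0.0372 with relative log expression factors and with DESeq2, −0.0088 with the compared groups alone and −0.0362 with the block added. In that last fit it was 0.0071 at 6 h, and Hdac1 in rMBD3 against untransfected was 0.0057. Hdac2 at 6 h against 2 h in GFP and rMBD3 cultures was 0.0008 and 0.0241 with relative log expression factors, 0.0016 and 0.0242 with DESeq2, 0.0343 and 0.0568 with the compared groups, and 0.0422 and 0.0394 with the block added. Its interaction at 6 h was −0.0181 with a block per time point, and its medium difference at 24 h was −0.0061 with relative log expression factors and −0.0060 with DESeq2. The Chd4 r over pairs was 0.066 with relative log expression factors and 0.004 without the 2 farthest pairs.

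Leaving out a culture, sign changes gave these ranges for rMBD3 against GFP: Chd4 −0.0532 to 0.0031 on average, −0.1071 to 0.0508 (6 h, magnesium), −0.1469 to 0.1129 (24 h, magnesium), −0.1072 to 0.1773 (2 h, magnesium-free) and −0.0981 to 0.0157 (24 h, magnesium-free), and Hdac1 −0.0748 to 0.1758 and −0.0837 to 0.1492 (6 and 24 h, magnesium). Against untransfected, Hdac1 was −0.0534 to 0.031 (rMBD3) and −0.0895 to 0.0009 (GFP). At 6 h against 2 h, Hdac2 was −0.1441 to 0.2377 (GFP, the latter past the threshold), −0.1056 to 0.1753 (rMBD3) and −0.0624 to 0.0825 (interaction), and the 24 h interaction of Chd4 was −0.2104 to 0.0193. Between media, Mbd3 was −0.1306 to 0.0342 on average, −0.2154 to 0.0595 at 24 h and −0.1272 to 0.2513 for the interaction, and Chd4 −0.0167 to 0.1158 at 2 h. The Chd4 r over pairs was −0.185 to 0.142. The effect of depth on these values was not tested.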
